A study of Mus musculus with 9 samples.

Results

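The cytosolic ribosome is built from a large and a small subunit, and the genes for its protein components are described here in cells of the embryonic mouse cortex. Members were the gene rows named Rpsa, Rplp0, Rplp1 or Rplp2, or Rpl or Rps followed by a number and at most 1 letter (a, x or l), after leaving out the Rps6k kinases, rows named as pseudogenes (-ps) and predicted models. A row also needed 10 or more counts in 3 or more libraries. Of 83 symbols that fit the names, 3 (Rps4l, Rpl6l and Rpl32l) are annotated as processed pseudogenes and were left out, and 3 (Rpl3l, Rpl10l and Rpl39l) did not reach the count minimum. This left 77 members, 46 of the large and 31 of the small subunit, among 53379 gene rows. None stood near the count minimum: the lowest member count in any library was 735 (Rpl24 in scramble replicate 1), whereas Rpl3l, Rpl39l and Rpl10l never exceeded 3 counts in a library. Genes such as Rps3a1, Fau, Rack1, Rpl22l1, Rpl36al and Rpl7l1, which also code for ribosomal proteins, associated proteins or paralogs, have other names. They are counted as a separate list, and values are given only for the paralogs.

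The cells came from C57BL/6 embryos that were electroporated in utero at E13.5 with short hairpin RNAs (shRNAs), collected 48 hours later at E15.5 and sorted for GFP (E counts embryonic days). The circSlc45a4 knockdown group received 3 shRNAs against the circular RNA circSlc45a4, for the Slc45a4 mRNA knockdown group 2 shRNAs targeted the linear transcript of Slc45a4, and the scramble group was given 1 scrambled sequence. Each group held 3 libraries, which the submitters call biological replicates. Libraries were made with Illumina TruSeq from polyA-selected RNA, which selects against circSlc45a4, since it has no polyA tail. The counts are per gene, and circSlc45a4 was not measured apart from the Slc45a4 row. In bulk libraries of this kind, fewer cells of a type and less RNA per cell cannot be told apart.

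Ribosomal proteins assemble with ribosomal RNA in the nucleolus into a small subunit, which reads the mRNA, and a large subunit, which joins amino acids. Nearly every protein is present in 1 copy per ribosome, so the mRNAs of this family are usually made in step, and most begin with a pyrimidine tract (the TOP motif) through which mTORC1 and Larp1 control their translation. Progenitors of the developing cortex are rich in ribosomes, and several ribosomal protein genes cause Diamond-Blackfan anaemia or developmental defects when 1 copy is lost in humans.

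Total counts per library were 36883510 to 45469298 in the circSlc45a4 knockdown, 35307378 to 37051161 in the Slc45a4 mRNA knockdown and 21073174 to 31833779 in scramble. The Slc45a4 row had 25.4, 25.3 and 24.7 CPM in the circSlc45a4 knockdown, 13.3, 18.5 and 17.4 CPM in the Slc45a4 mRNA knockdown and 31.4, 33.6 and 34.0 CPM in scramble. It fell in both knockdowns in the edgeR test (log2 fold change -0.39, SE 0.12, adjusted p = 0.0245 with the circSlc45a4 shRNAs, log2 fold change -1.01, SE 0.12, adjusted p = 0.000108 with those against the mRNA). The fall with the circSlc45a4 shRNAs lost its call when any 1 of the 3 circSlc45a4 knockdown libraries, or scramble replicate 2 or 3, was left out (log2 fold change -0.40 to -0.37, adjusted p 0.066 to 0.087). CPM are counts scaled to the same library total, with factors from the trimmed mean of M-values (TMM). Xist, the RNA that silences an X chromosome in female cells, had 635, 264 and 428 CPM in the circSlc45a4 knockdown, 1549.6, 637 and 0.194 CPM in the Slc45a4 mRNA knockdown and 0.239, 0.0648 and 0.0617 CPM in scramble. Marker genes of the cortex were read in every group: 15 apical progenitor genes summed to 2491 to 2862 CPM in the circSlc45a4 knockdown, 2013 to 2434 CPM in the Slc45a4 mRNA knockdown and 1845 to 2148 CPM in scramble, and 14 neuronal genes summed to 6165 to 6431 CPM in the circSlc45a4 knockdown, 5490.2 to 6200.1 CPM in the Slc45a4 mRNA knockdown and 6478 to 7669 CPM in scramble. Of the apical progenitor genes 8 rose and 1 fell in the circSlc45a4 knockdown, and 4 rose and 1 fell in the Slc45a4 mRNA knockdown. Of 9 basal progenitor genes 6 fell in the circSlc45a4 knockdown and 3 in the Slc45a4 mRNA knockdown. Of the neuronal genes 2 rose and 5 fell in the circSlc45a4 knockdown (median log2 fold change -0.29), and 1 rose and 4 fell in the Slc45a4 mRNA knockdown (median -0.26). In the circSlc45a4 knockdown the shares called (adjusted p under 0.05, edgeR test) were 60% of the apical, 66.7% of the basal and 50% of the neuronal genes. In the Slc45a4 mRNA knockdown they were 33.3%, 33.3% and 35.7%. Of all genes tested, 27.1% were called in the circSlc45a4 knockdown and 18% in the Slc45a4 mRNA knockdown. The part of these markers in the ribosomal protein values was not tested. Lists for erythroid cells, microglia, endothelial cells, pericytes and meninges, ventral inhibitory neurons and oligodendrocyte precursors summed to at most 26.1 CPM each in any library. The 8 tested microglial genes all lay above 0 in both knockdowns, and 2 rose in the circSlc45a4 knockdown (25%, against 27.1% of all genes). The list summed to 7.13 to 13.1 CPM in the circSlc45a4 knockdown, 3.82 to 8.85 CPM in the Slc45a4 mRNA knockdown and 2.59 to 4.54 CPM in scramble. Of 5 tested ventral inhibitory genes 3 fell in the circSlc45a4 knockdown (60%). Of 5 tested erythroid genes 3 were higher there than in the Slc45a4 mRNA knockdown (60%, against 26.1% of all genes). The remaining low lists had at most 1 gene called in a comparison.

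The start of the gene is where this family carries its shared sequence, and windows are therefore shown for members that results below turn on. RefSeq promoters were matched by symbol for 57 of the 77 members (not for Rpl29, Rps20, Rpl32 or Rpl7, among others). A run of 8 or more C or T bases that starts with C, on the strand of the gene and within 50 bases of the annotated start, was found in 49 of the 57 (86.0%), against 31.99% of 27025 genes. On the other strand the same run was found in 21.1% of the members and 34.4% of all genes. The ETS motif CCGGAAG on either strand lay in the 300 bases around the start of 42.1% of the members, against 9.93% of all genes. Its reverse complement, CTTCCGG, opens with 5 letters that can belong to such a run, so the 2 motifs can overlap. Each line below runs 5′ to 3′ on the gene's strand, from 50 bases before to 20 after the annotated start, with the pyrimidine run in capitals. The first 4 belong to genes that fell in the circSlc45a4 knockdown, the next 2 to genes that rose in both knockdowns, and the last 2 to genes that rose in the Slc45a4 mRNA knockdown.
Rpl28: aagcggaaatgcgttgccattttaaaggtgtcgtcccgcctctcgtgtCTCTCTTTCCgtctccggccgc
Rps12: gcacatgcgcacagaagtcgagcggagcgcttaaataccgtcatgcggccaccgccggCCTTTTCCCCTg
Rps26: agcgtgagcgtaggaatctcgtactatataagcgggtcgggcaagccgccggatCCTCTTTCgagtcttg
Rpl4: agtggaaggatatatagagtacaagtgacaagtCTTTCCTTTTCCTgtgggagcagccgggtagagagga
Rpl27: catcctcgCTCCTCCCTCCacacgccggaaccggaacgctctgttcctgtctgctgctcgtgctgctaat
Rpl23: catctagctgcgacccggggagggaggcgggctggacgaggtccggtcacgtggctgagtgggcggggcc
Rpl39: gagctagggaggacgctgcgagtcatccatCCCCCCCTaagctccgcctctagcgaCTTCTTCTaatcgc
Rps27l: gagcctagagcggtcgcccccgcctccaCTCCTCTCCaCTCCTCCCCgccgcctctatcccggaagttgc
On GRCm38.p6 these windows lie at chr7:4792915-4792984 (Rpl28, plus strand), chr10:23787190-23787259 (Rps12, minus strand), chr10:128626487-128626556 (Rps26, minus strand), chr9:64173337-64173406 (Rpl4, plus strand), chr11:101442195-101442264 (Rpl27, plus strand), chr11:97782420-97782489 (Rpl23, minus strand), chrX:37085203-37085272 (Rpl39, minus strand) and chr9:66946036-66946105 (Rps27l, plus strand). RefSeq and GENCODE place some starts differently, and the window of Rpl27 ends before the GENCODE start of that gene. The window of Rpl23 holds no such run, and those of Rpl39 and Rps27l hold more than 1. Among members with a window, the run was present in 4 of the 5 that fell, 1 of the 2 that rose and 44 of the 50 not called in the circSlc45a4 knockdown against scramble. In the Slc45a4 mRNA knockdown against scramble it was present in 4 of the 5 that rose and 45 of the 52 not called. A match describes the letters and is no evidence of binding.

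Levels are compared between genes as length-scaled abundance (TPM) over the union of each gene's exons. The 77 members ranged from 68.8 TPM (Rpl13a) to 1978 TPM (Rplp1) as means over all 9 libraries, with a median of 508 TPM in the large and 527 TPM in the small subunit. Rplp1, a protein of the stalk that recruits elongation factors, averaged 1881 ± 162 TPM in the circSlc45a4 knockdown, 1947 ± 100.04 TPM in the Slc45a4 mRNA knockdown and 2107 ± 137 TPM in scramble (SD, n = 3 each). Next in the large subunit stood Rplp0, the base of that stalk, at 1274 ± 89.0, 1450.0 ± 97.9 and 1475 ± 71.2 TPM, and Rpl23a, which lies at the exit of the peptide tunnel, at 1259 ± 129, 1409 ± 117 and 1412 ± 37.3 TPM in the same order of groups. Among the highest in the small subunit were Rps15 (1397 ± 113, 1479.8 ± 80.5 and 1461 ± 65.6 TPM) and the X-linked Rps4x (1041 ± 72.0, 1276 ± 36.6 and 1191 ± 23.9 TPM). In the Slc45a4 mRNA knockdown the means of Rps15, Rplp0 and Rpl23a differed from each other by less than the SD of each gene.

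The lowest members were Rpl13a and Rpl24 in the large subunit, at 68.5 ± 5.91 and 87.0 ± 11.8 TPM in the circSlc45a4 knockdown, 73.8 ± 1.57 and 89.0 ± 2.32 TPM in the Slc45a4 mRNA knockdown and 64.2 ± 6.71 and 79.8 ± 3.92 TPM in scramble. Rpl24 is the gene mutated in the Belly spot and tail mouse. Both share exons on the same strand with another annotated gene (Gm45713 for Rpl13a, Gm28037 for Rpl24) that is listed with 0 counts, and the part of that overlap in their low counts was not tested. Rpl35a followed at 139 ± 5.04, 151 ± 13.51 and 134 ± 6.02 TPM. In the small subunit the lowest were Rps27l (113 ± 5.35, 137 ± 19.0 and 108 ± 6.35 TPM), Rps20 (149 ± 13.49, 193 ± 14.0 and 191 ± 4.02 TPM) and Rps15a (176 ± 12.4, 195 ± 6.22 and 171 ± 7.53 TPM). The order depends on the length used. Rps20 and Rps15a have long unions of exons (4080 and 6270 bases) and long principal transcripts (3706 and 5179 bases). In circSlc45a4 knockdown replicate 1, Rps15a had 18119 counts, against 15875 for Rps15 (630 bases), which is named among the highest. Which transcripts of these genes were read was not tested. Over the length of 1 principal transcript Rps27 (rank 19 by union length) ranked 1 and Rpl10 (rank 15) ranked 2, Rplp1 stood at rank 6 and Rpl35a at rank 46, while Rpl24 and Rpl13a stayed in the last 2 places.

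**Figure D1:**
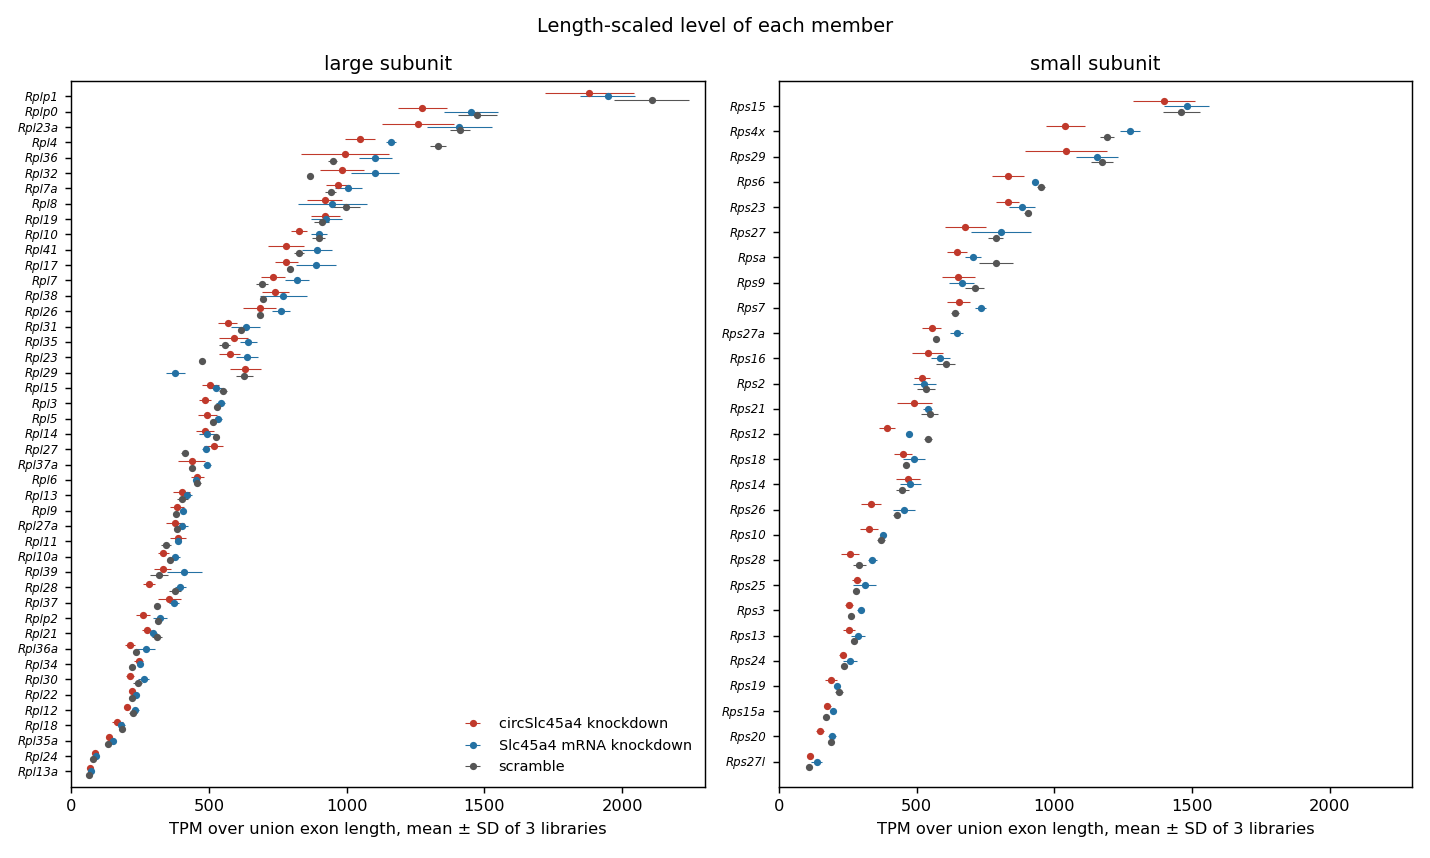
Length-scaled level of 72 of the 77 members in TPM (x axis, mean ± SD of 3 libraries), large subunit left and small subunit right, sorted by the mean over all libraries. Each gene has a point for the circSlc45a4 knockdown (red, top), the Slc45a4 mRNA knockdown (blue) and scramble (grey, bottom); Rplp1 lies highest at about 1978 TPM, and for Rpl29 the Slc45a4 mRNA knockdown stands clear of the other two groups.

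As a share of all counts, the members took 2.78, 3.29 and 2.74% in the circSlc45a4 knockdown, 3.60, 3.48 and 3.20% in the Slc45a4 mRNA knockdown and 3.15, 3.18 and 3.21% in scramble. Replicate 2 of the circSlc45a4 knockdown stood apart from its group, above all 3 scramble libraries where the other two lay below them. Per exon length the members summed to 42857 ± 3142 TPM in the circSlc45a4 knockdown, 47187 ± 1269.8 TPM in the Slc45a4 mRNA knockdown and 45734 ± 872 TPM in scramble (SD, n = 3 each), and the groups overlapped. The balance of the subunits was steadier between libraries than the total. The summed TPM of the large subunit over that of the small subunit was 1.57, 1.54 and 1.57 in the circSlc45a4 knockdown, 1.47, 1.48 and 1.48 in the Slc45a4 mRNA knockdown and 1.47, 1.47 and 1.45 in scramble. All 3 libraries of the circSlc45a4 knockdown lay above the other 6. The Slc45a4 mRNA knockdown (1.4696 to 1.4813) lay close to scramble (1.4548 to 1.4680) but above it, without overlap. As a ratio of count shares without length, these 2 groups overlapped (1.397 to 1.411 and 1.385 to 1.403). Relative to scramble the ratio was 0.09 higher on the log2 scale in the circSlc45a4 knockdown and 0.01 higher in the Slc45a4 mRNA knockdown. Since the members were chosen with these data in view, the ratio carries no p.

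**Figure D2:**
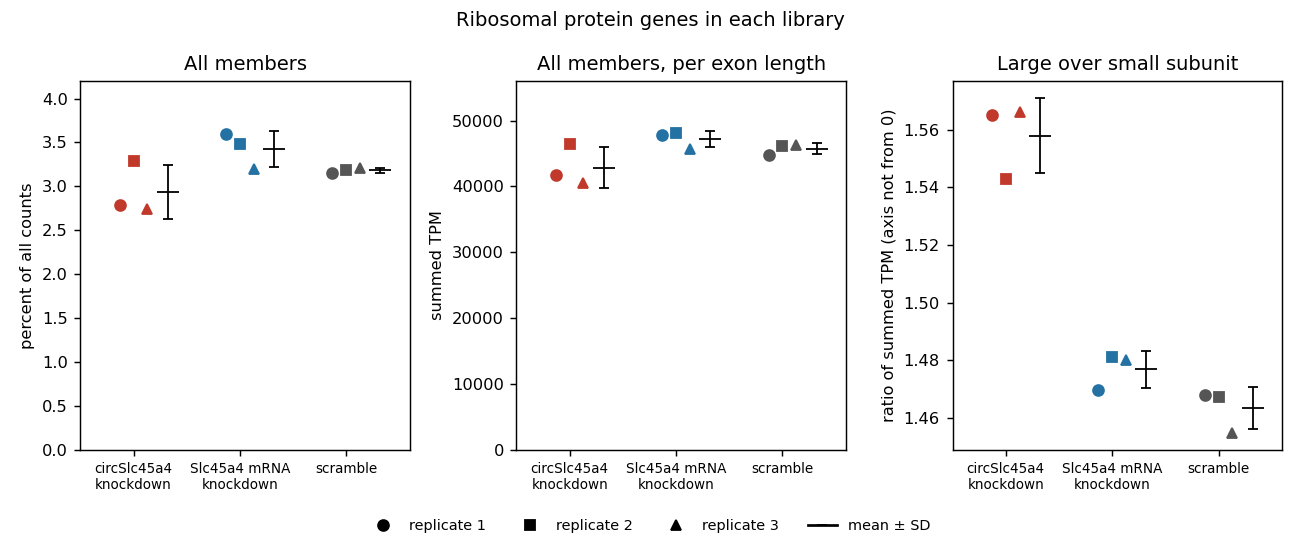
Members in each library: their share of all counts in percent (left), their summed TPM (middle) and the ratio of summed TPM of large over small subunit members (right, axis not from 0). Points are the 3 libraries of each group and bars the mean ± SD; replicate 2 of the circSlc45a4 knockdown lies highest in its group on the left, and the ratios of 1.54 to 1.57 in that group lie above those of the other 6 libraries.

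The circSlc45a4 knockdown was set against scramble to ask how cells given the circSlc45a4 shRNAs differed from cells given the scrambled sequence. More members fell than rose: 8 fell and 2 rose, so 13% of the members were called, against 27.1% of all 17760 genes tested (14.1% called higher, 13% lower) by the quasi-likelihood test of edgeR with an adjusted p under 0.05. The share of members called was thus below that of all genes. Most changes were small, with a median log2 fold change of -0.06 over the members and -0.01 over all genes, and 48 members lay below 0. In the small subunit 5 of 31 fell and none rose, with a median of -0.12 and 25 below 0, and in the large subunit 3 of 46 fell and 2 rose, with a median of -0.01 and 23 below 0. The 67 members not called lay between -0.27 and 0.21. With upper-quartile scaling the median of the members was -0.11 and that of all genes -0.06, and 17 members lay above 0 in place of 29.

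Rps12 (chr10:23785183-23787275, minus strand on GRCm38), a small subunit protein which in Drosophila acts in the competition between cells with unequal ribosomal gene dose, had 303, 359.9 and 301 CPM in the circSlc45a4 knockdown, 422, 401 and 379.6 CPM in the Slc45a4 mRNA knockdown and 444, 429.7 and 447 CPM in scramble. The groups did not overlap, with the Slc45a4 mRNA knockdown between the others (log2 fold change -0.45, SE 0.08, adjusted p = 0.00145 against scramble). Rpl28, a large subunit protein (chr7:4792874-4795066, plus strand), had 194, 236 and 202 CPM in the circSlc45a4 knockdown and 265, 283 and 287 CPM in scramble, without overlap (log2 fold change -0.40, SE 0.09, adjusted p = 0.00546). Its exons overlap those of Ube2s on the other strand (3406 to 8644 counts per library), and no source used here says whether counting was by strand.

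Rps20, Rps26, Rpl4 and Rpsa fell by less than these. Rps20, which lies at the entry of the mRNA channel and is ubiquitinated on stalled ribosomes, had 221, 279 and 238 CPM in the circSlc45a4 knockdown and 312, 311 and 314 CPM in scramble (log2 fold change -0.35, SE 0.10, adjusted p = 0.0182). Rps26 contacts the mRNA ahead of the start codon and is a Diamond-Blackfan gene in humans. It had 188, 242 and 198 CPM in the circSlc45a4 knockdown and 264, 262 and 269 CPM in scramble (log2 fold change -0.34, SE 0.11, adjusted p = 0.0306). Rpl4, which lines the peptide exit tunnel and whose gene spans 5 small nucleolar RNA (snoRNA) genes, had 787, 921 and 842 CPM in the circSlc45a4 knockdown and 1121, 1066 and 1038 CPM in scramble (log2 fold change -0.34, SE 0.08, adjusted p = 0.00521). In none of these 3 genes did the groups overlap. Rpsa, a small subunit protein also known as a laminin receptor, had 787, 914 and 787 CPM in the circSlc45a4 knockdown and 935, 1026 and 1051 CPM in scramble (log2 fold change -0.28, SE 0.08, adjusted p = 0.0271), again without overlap.

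The 2 members that rose belong to the large subunit. Rpl27 (chr11:101442298-101445529, plus strand), a Diamond-Blackfan gene in humans, had 313, 355 and 294 CPM in the circSlc45a4 knockdown and 251, 259 and 254 CPM in scramble (log2 fold change 0.33, SE 0.08, adjusted p = 0.00816). Rpl23 (chr11:97777527-97782437, minus strand) lies where the subunits meet and can bind Mdm2, the ligase that degrades p53. It had 388, 457 and 388 CPM in the circSlc45a4 knockdown and 345, 335 and 333 CPM in scramble (log2 fold change 0.28, SE 0.09, adjusted p = 0.0303). Neither gene's groups overlapped. Over all members the groups did not overlap in 14 (3 higher, 11 lower), against 43.9% of all genes.

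Rps12, Rpl28, Rpl4 and Rpl27 stayed past the threshold whichever library was left out. Rps20 lost its call without circSlc45a4 knockdown replicate 1 or 3 or scramble replicate 2 or 3 (log2 fold change -0.35 to -0.28, adjusted p 0.052 to 0.075). Rps26 lost its call without circSlc45a4 knockdown replicate 1 or 3 or scramble replicate 1, 2 or 3 (log2 fold change -0.34 to -0.27, adjusted p 0.061 to 0.12). Rpsa lost its call without circSlc45a4 knockdown replicate 1 or 3 or scramble replicate 2 or 3 (log2 fold change -0.26 to -0.24, adjusted p 0.09 to 0.1), and Rpl23 lost its call without circSlc45a4 knockdown replicate 2 or scramble replicate 1, 2 or 3 (log2 fold change 0.20 to 0.30, adjusted p 0.056 to 0.12). Replicate 2 of the circSlc45a4 knockdown had the highest share of ribosomal protein counts in its group. Without it 19 members were called (1 higher, 18 lower), beside 3614 of all genes, and the members' median was -0.17. Without scramble replicate 2, and likewise without scramble replicate 3, 5 were called. With Xist, read far less in scramble than in 5 of the 6 knockdown libraries, as a covariate, 2 members were called, Rps12 among them (adjusted p = 0.0465). Rps12 was also among the 2 that passed a test for a change of more than 1.2-fold (adjusted p = 0.0403).

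**Figure D3:**
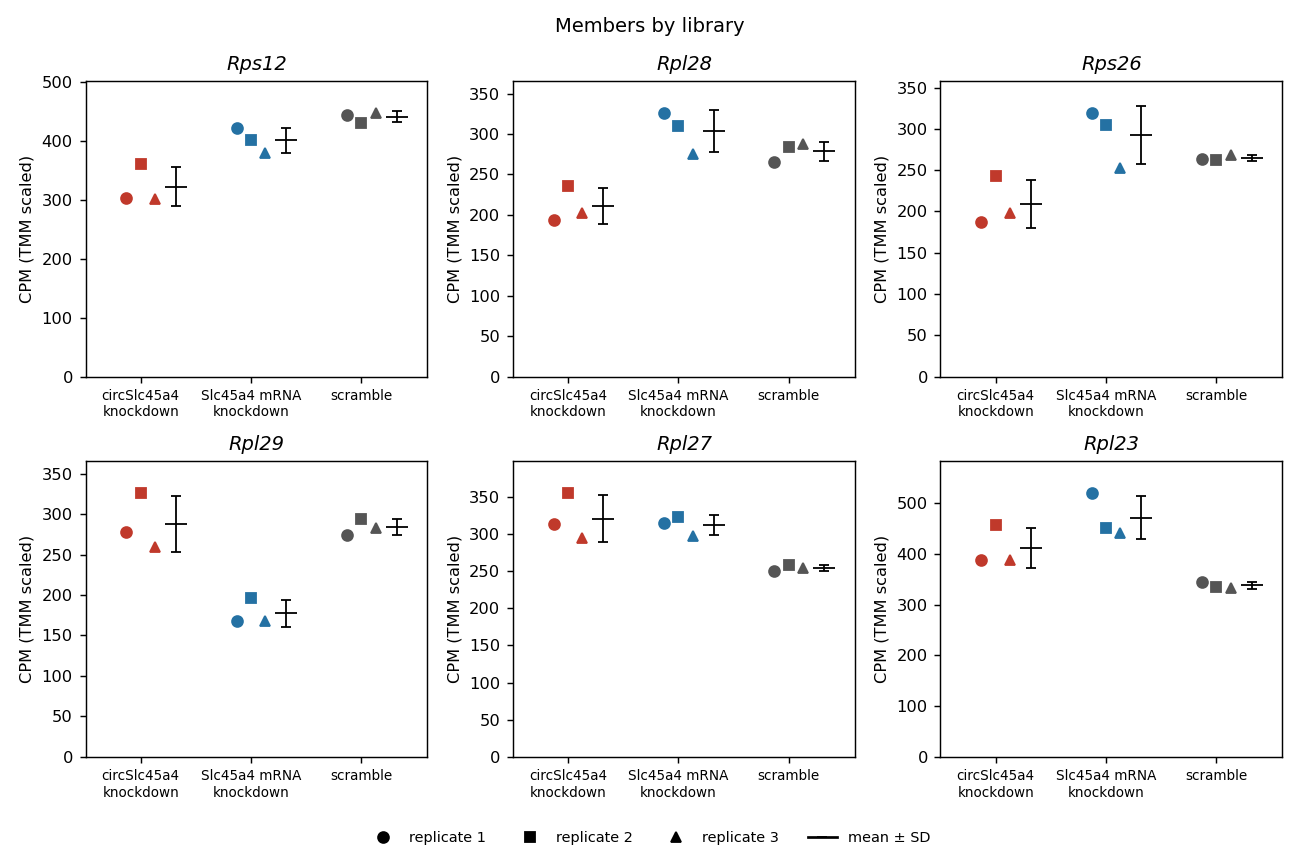
TMM-scaled CPM of 6 members in each library, with the circSlc45a4 knockdown left, the Slc45a4 mRNA knockdown in the middle and scramble right. Points are the 3 libraries and bars the mean ± SD: Rps12, Rpl28 and Rps26 lie lowest in the circSlc45a4 knockdown, Rpl29 lies lowest in the Slc45a4 mRNA knockdown, and Rpl27 and Rpl23 lie above scramble in both knockdowns.

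The Slc45a4 mRNA knockdown against scramble asks the same of cells given the shRNAs against the linear mRNA. Here more members rose than fell: 8 rose and 1 fell, 11.7% of the members, against 18% of all genes (8.92% higher, 9.09% lower) in the edgeR test. The share called was again below that of all genes, although 65 members lay above 0, with a median of 0.13 against 0.01 over all genes. In the large subunit 6 of 46 rose and 1 fell (median 0.14), and in the small subunit 2 of 31 rose and none fell (median 0.11). The groups did not overlap in 36 members, 33 of them higher and 3 lower, against 36.1% of all genes (17.7% higher, 18.4% lower). The 68 members not called lay between -0.15 and 0.27.

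Rpl29 (chr9:106429454-106431568, plus strand), a large subunit protein that mice can lack and live, though small in size, was the member that fell. It had 278, 326 and 259 CPM in the circSlc45a4 knockdown, 168, 197 and 168 CPM in the Slc45a4 mRNA knockdown and 274, 294 and 283 CPM in scramble (log2 fold change -0.68, SE 0.10, adjusted p = 0.000428). All 3 libraries of the Slc45a4 mRNA knockdown lay far below the other 6, and the circSlc45a4 knockdown did not differ from scramble by more than its spread (log2 fold change 0.02, SE 0.10, adjusted p = 0.905). The call held under every alternative run.

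Rpl23 rose most, with 519.8, 451 and 442 CPM in the Slc45a4 mRNA knockdown and 345, 335 and 333 CPM in scramble (log2 fold change 0.48, SE 0.09, adjusted p = 0.00241), and its groups did not overlap. Rpl39, a very short protein of the exit tunnel encoded on the X chromosome, had 298, 222 and 219.6 CPM in the Slc45a4 mRNA knockdown and 208, 177 and 166 CPM in scramble (log2 fold change 0.42, SE 0.13, adjusted p = 0.0381). Replicate 1 of the Slc45a4 mRNA knockdown, the library with the most Xist, stood highest, as it did for the autosomal Rpl23, Rpl32 and Rps27l. That library also had the highest share of member counts of all libraries (3.60%). Rpl32, of the large subunit, had 498, 432 and 401 CPM in the Slc45a4 mRNA knockdown and 343, 331 and 333 CPM in scramble (log2 fold change 0.40, SE 0.10, adjusted p = 0.0119). Its exons overlap those of Cand2 on the other strand (1264 to 3840 counts per library). Rps27l, a paralog of Rps27 that p53 can induce, had 55.8, 43.7 and 40.9 CPM in the Slc45a4 mRNA knockdown and 35.2, 33.9 and 37.4 CPM in scramble (log2 fold change 0.40, SE 0.11, adjusted p = 0.0272). The groups of Rpl32 and Rps27l did not overlap.

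Rpl37, Rpl7 and Rpl27, which also rose, are proteins of the large subunit. Rpl37 had 259, 277 and 247 CPM in the Slc45a4 mRNA knockdown and 219.9, 207 and 204 CPM in scramble (log2 fold change 0.31, SE 0.10, adjusted p = 0.0433). Rpl7 had 993, 935 and 833 CPM in the Slc45a4 mRNA knockdown and 789, 727 and 729 CPM in scramble (log2 fold change 0.30, SE 0.09, adjusted p = 0.0331). Rpl27 had 315, 323 and 298 CPM in the Slc45a4 mRNA knockdown and 251, 259 and 254 CPM in scramble (log2 fold change 0.29, SE 0.08, adjusted p = 0.0238). The groups of all 3 stood apart. Rpl23 and Rpl27 were thus called higher in both knockdowns, which share the scramble libraries.

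Rpl29 and Rpl23 stayed past the threshold without each library in turn, and the other 7 did not. Rpl39 lost its call without Slc45a4 mRNA knockdown replicate 1 or scramble replicate 2 or 3 (log2 fold change 0.27 to 0.40, adjusted p 0.13 each), and Rpl32 lost its call without scramble replicate 2 (log2 change 0.39, adjusted p = 0.0567). Rps27l lost its call without Slc45a4 mRNA knockdown replicate 1 or scramble replicate 1 or 2 (log2 fold change 0.26 to 0.39, adjusted p 0.067 to 0.11). Rpl37 lost its call without Slc45a4 mRNA knockdown replicate 1, 2 or 3 or scramble replicate 1, 2 or 3 (log2 fold change 0.27 to 0.35, adjusted p 0.057 to 0.14). Rpl7 lost its call without Slc45a4 mRNA knockdown replicate 1 or 2 or scramble replicate 2 or 3 (log2 fold change 0.25 to 0.29, adjusted p 0.075 to 0.13), and Rpl27 lost its call without Slc45a4 mRNA knockdown replicate 2 or scramble replicate 1, 2 or 3 (log2 fold change 0.27 to 0.31, adjusted p 0.068 to 0.077). The number of members called was 4 without Slc45a4 mRNA knockdown replicate 1, 5 without its replicate 2 and 5, 2 and 4 without scramble replicates 1, 2 and 3. With Xist as a covariate 1 member was called, and 1 differed by more than 1.2-fold.

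**Figure D4:**
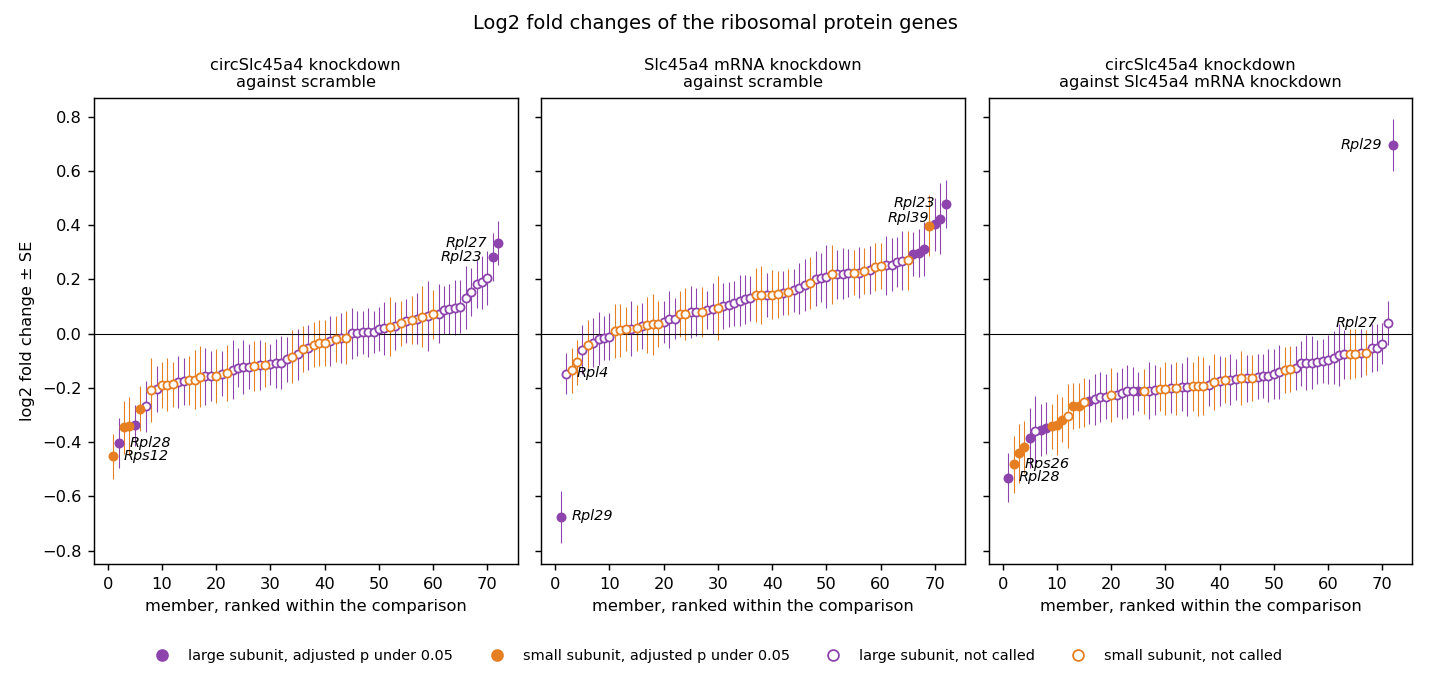
Log2 fold change ± SE of 72 of the 77 members (y axis), ranked within each comparison (x axis), for the circSlc45a4 knockdown against scramble (left), the Slc45a4 mRNA knockdown against scramble (middle) and the circSlc45a4 knockdown against the Slc45a4 mRNA knockdown (right). Filled points have an adjusted p under 0.05 and colours mark the subunit: most points lie above 0 in the middle and below 0 on the right, and Rpl29 lies far from the rest in both.

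Set directly against each other, the 2 knockdowns differed in 16 members, of which 15 were lower and 1 higher in the circSlc45a4 knockdown than in the Slc45a4 mRNA knockdown. That is 20.8% of the members, against 26.1% of all genes (13.8% higher, 12.3% lower). The direction was nearly uniform: 75 of 77 members lay below 0, with a median of -0.19 against -0.02 over all genes. With a length correction the median of the members was -0.12, and 7 members lay above 0. All 31 small subunit members lay below 0 and 9 of them were called lower (median -0.20), while in the large subunit 44 of 46 lay below 0, 6 were called lower and 1 higher (median -0.17). The groups did not overlap in 19 members (1 higher, 18 lower), against 40.1% of all genes (20.3% higher, 19.8% lower). This comparison shares no control library, and it tests the difference between the effects of both shRNA mixes.

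Rpl28 was lower in the circSlc45a4 knockdown, and its Slc45a4 mRNA knockdown libraries held 326, 310.4 and 276 CPM (log2 fold change -0.53, SE 0.09, adjusted p = 0.00107). Rps26 had 319.7, 305 and 252 CPM in the Slc45a4 mRNA knockdown (log2 fold change -0.48, SE 0.11, adjusted p = 0.00519) and Rps20 had 367, 318 and 301 CPM there (log2 fold change -0.42, SE 0.10, adjusted p = 0.00692). Rpl29 was the member that was higher (log2 fold change 0.69, SE 0.10, adjusted p = 0.000234). These 4 kept their calls without each library in turn, and in each the 2 groups did not overlap.

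Other members were called in this comparison that neither knockdown moved past the threshold against scramble. Rps28, a small protein near the mRNA exit, had 165, 213 and 161 CPM in the circSlc45a4 knockdown and 265, 243 and 224 CPM in the Slc45a4 mRNA knockdown (log2 fold change -0.44, SE 0.11, adjusted p = 0.00949). Rps4x had 622, 754 and 678 CPM in the circSlc45a4 knockdown and 915, 882 and 807 CPM in the Slc45a4 mRNA knockdown (log2 fold change -0.34, SE 0.08, adjusted p = 0.00946). Rpl36a had 129, 161 and 139 CPM in the circSlc45a4 knockdown and 220.2, 174 and 166 CPM in the Slc45a4 mRNA knockdown (log2 fold change -0.39, SE 0.11, adjusted p = 0.0199). Rps4x and Rpl36a lie on the X chromosome, and so do Rpl10 and Rpl39. The 4 X-linked members had a median of -0.35 in this comparison and the 73 autosomal members one of -0.19. Of the X-linked members 2 were called lower (50%). Of the autosomal members 13 were called lower and 1 higher (19.2%), against 26.1% of all genes. The part of the Xist difference between libraries was not tested beyond a covariate, under which 21 members and 4280 of all genes were called in this comparison.

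Rpl30 had 237, 286 and 255 CPM in the circSlc45a4 knockdown and 370.4, 316 and 309.6 CPM in the Slc45a4 mRNA knockdown (log2 fold change -0.36, SE 0.10, adjusted p = 0.0151); its yeast homolog binds its own transcript. Rplp2, a stalk protein, had 201, 252 and 202 CPM in the circSlc45a4 knockdown and 263, 302 and 268 CPM in the Slc45a4 mRNA knockdown (log2 fold change -0.35, SE 0.10, adjusted p = 0.0165). Rps27a, made as a fusion with ubiquitin, had 407, 488 and 428 CPM in the circSlc45a4 knockdown and 572, 525 and 496 CPM in the Slc45a4 mRNA knockdown (log2 fold change -0.27, SE 0.08, adjusted p = 0.0327). In these genes, too, every circSlc45a4 knockdown library lay below every Slc45a4 mRNA knockdown library. Rps3, at the mRNA entry, had 439.8, 511 and 432 CPM in the circSlc45a4 knockdown and 546, 583 and 534 CPM in the Slc45a4 mRNA knockdown (log2 fold change -0.27, SE 0.08, adjusted p = 0.0309). Rpl12, at the base of the stalk, had 274, 323 and 282 CPM in the circSlc45a4 knockdown and 339, 369 and 339 CPM in the Slc45a4 mRNA knockdown (log2 fold change -0.25, SE 0.08, adjusted p = 0.0414). Rpl3, which reaches toward the peptidyl transferase centre, had 577, 657 and 627 CPM in the circSlc45a4 knockdown and 717, 732 and 707 CPM in the Slc45a4 mRNA knockdown (log2 fold change -0.21, SE 0.07, adjusted p = 0.0414). Rps12 (-0.32, adjusted p = 0.0137) and Rps27l (-0.34, adjusted p = 0.0416) were also called lower.

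The number of calls here turned on the circSlc45a4 knockdown libraries: 5 members were called without its replicate 1, 38 without its replicate 2 and 8 without its replicate 3. Of all genes, 3059, 3527 and 4101 were called in these runs. With upper-quartile scaling 31 members and 4807 of all genes were called, and 3 members differed by more than 1.2-fold. Without circSlc45a4 knockdown replicate 2, and with upper-quartile scaling, the share of members called was above that of all genes. Upper-quartile scaling moved the median of all genes as well, from -0.02 to -0.07, beside -0.19 to -0.25 for the members. Rps28 lost its call without circSlc45a4 knockdown replicate 1 (log2 change -0.37, adjusted p = 0.0507), and Rps4x lost its call without circSlc45a4 knockdown replicate 1 (log2 change -0.27, adjusted p = 0.0516). Rpl36a lost its call without circSlc45a4 knockdown replicate 1 or 3 or Slc45a4 mRNA knockdown replicate 1 (log2 fold change -0.36 to -0.25, adjusted p 0.058 to 0.093). Rpl30 lost its call without circSlc45a4 knockdown replicate 1 (log2 change -0.29, adjusted p = 0.076), and Rplp2 lost its call without circSlc45a4 knockdown replicate 1 or 3 or Slc45a4 mRNA knockdown replicate 2 (log2 fold change -0.30 to -0.28, adjusted p 0.061 to 0.086). Rps27l lost its call without circSlc45a4 knockdown replicate 1, 2 or 3 or Slc45a4 mRNA knockdown replicate 1 (log2 fold change -0.35 to -0.19, adjusted p 0.081 to 0.16). Rps12 lost its call without circSlc45a4 knockdown replicate 1 or 3 (log2 fold change -0.27, adjusted p 0.051 to 0.067). Rps27a lost its call without circSlc45a4 knockdown replicate 1 or 3 or Slc45a4 mRNA knockdown replicate 1 or 2 (log2 fold change -0.27 to -0.20, adjusted p 0.066 to 0.15), and Rps3 lost its call without circSlc45a4 knockdown replicate 1 or 3 or Slc45a4 mRNA knockdown replicate 2 (log2 fold change -0.23 to -0.22, adjusted p 0.1 to 0.12). Rpl12 lost its call without circSlc45a4 knockdown replicate 1 or 3 or Slc45a4 mRNA knockdown replicate 2 or 3 (log2 fold change -0.27 to -0.20, adjusted p 0.068 to 0.17), and Rpl3 lost its call without circSlc45a4 knockdown replicate 1 or 3 or Slc45a4 mRNA knockdown replicate 2 or 3 (log2 fold change -0.22 to -0.15, adjusted p 0.072 to 0.19).

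Paralogs were compared as a share of the counts of both genes of a pair. Rpl22l1, which can take the place of Rpl22 in the large subunit, made up 11.04, 12.6 and 14.0% of the pair in the circSlc45a4 knockdown, 17.8, 15.4 and 17.2% in the Slc45a4 mRNA knockdown and 13.4, 11.9 and 12.6% in scramble. The Slc45a4 mRNA knockdown libraries lay above the other 6. The counts of Rpl22l1 itself rose in that knockdown, with 67.6, 51.7 and 55.6 CPM in the Slc45a4 mRNA knockdown and 40.6, 34.7 and 36.4 CPM in scramble (log2 fold change 0.65, SE 0.13, adjusted p = 0.00376), while Rpl22 did not pass the threshold (log2 fold change 0.16, SE 0.08, adjusted p = 0.191). In the circSlc45a4 knockdown Rpl22l1 had 30.7, 40.2 and 40.5 CPM, which overlapped scramble (log2 fold change -0.00, SE 0.13, adjusted p = 0.99) and was lower than in the Slc45a4 mRNA knockdown (log2 fold change -0.65, SE 0.13, adjusted p = 0.00239). Rps27l made up 12.02, 10.3 and 12.5% of its pair with Rps27 in the circSlc45a4 knockdown, 11.8, 11.5 and 11.9% in the Slc45a4 mRNA knockdown and 9.67, 9.53 and 9.97% in scramble. All 6 knockdown libraries lay above scramble, and Rps27 itself was not called in either (log2 fold change -0.21, SE 0.12, adjusted p = 0.218 in the circSlc45a4 knockdown, log2 fold change 0.09, SE 0.12, adjusted p = 0.628 in the Slc45a4 mRNA knockdown). A share computed from counts does not correct for the lengths of the 2 genes.

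Other paralogs were a small share. Rpl7l1 made up 8.54 to 9.78% of its pair with Rpl7 in the circSlc45a4 knockdown, 8.18 to 8.83% in the Slc45a4 mRNA knockdown and 9.09 to 9.97% in scramble, so that the Slc45a4 mRNA knockdown lay below scramble. Rps4l made up 1.93 to 2.47% of its pair with Rps4x in the circSlc45a4 knockdown, above the other 6 libraries, with 1.32 to 1.72% in the Slc45a4 mRNA knockdown and 1.35 to 1.85% in scramble. For Rpl36al beside Rpl36a the groups overlapped, at 1.28 to 3.02% over all 9 libraries, and none of these 3 paralogs was called in any comparison. Rpl3l, which replaces Rpl3 in heart and skeletal muscle, and Rpl39l, which is known from the testis, had 4 counts each over all 9 libraries, and Rpl10l, known from the same organ, had 0. Taking 3 counts as the limit behind a 0, Rpl10l could stand at up to 0.0660 CPM in the largest library and 0.142 CPM in the smallest. Of the 7 genes outside the naming rule, only Rpl22l1 was called, higher in the Slc45a4 mRNA knockdown and lower in the direct comparison.

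**Figure D5:**
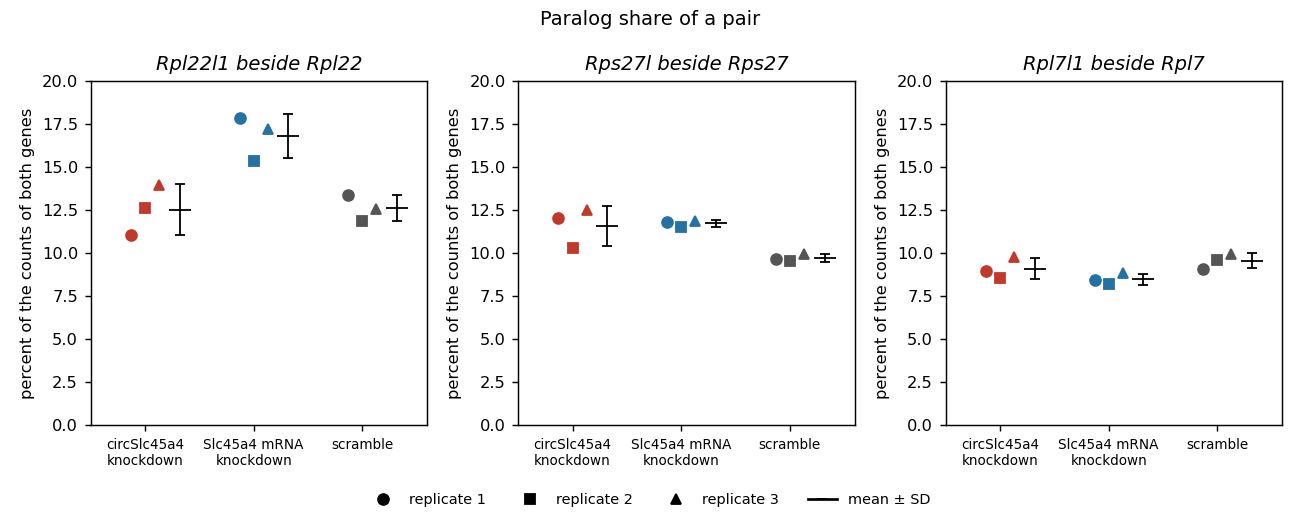
Share of the paralog in the counts of each pair (y axis, percent) for Rpl22l1 with Rpl22 (left), Rps27l with Rps27 (middle) and Rpl7l1 with Rpl7 (right), with the circSlc45a4 knockdown left and scramble right in each panel. Points are libraries and bars the mean ± SD; Rpl22l1 lies at 15.4 to 17.8% in the Slc45a4 mRNA knockdown and below that in the other 6 libraries, and Rps27l is lowest in scramble.

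Ribosomal protein genes have many processed pseudogenes, and reads that fit both a gene and its copies can be counted in either row. Windows of 50 bases were taken from 1 principal transcript of each member. Those that also occur in another gene's transcripts made up 0% to 98.6% (Rps27) of a member's windows, with a median of 51.3%. A long transcript lowers this share: Rps20 (3706 bases) had 7.57% and Rps15a (5179 bases) 6.37%. Yet single windows of these 2 genes occur in up to 39 and 53 other genes. The share was 83.6% in Rps12, 47.4% in Rpl28, 66.8% in Rpl29, 53.0% in Rpl27 and 34.8% in Rpl23. Among 179 tested rows named as pseudogenes of this family, 20 fell and 2 rose in the circSlc45a4 knockdown (12.3% called), 7 rose and 5 fell in the Slc45a4 mRNA knockdown (6.70%), and 31 were lower and 2 higher in the direct comparison (18.4%). Some rows moved as their parent did, and how many did not was not counted. The examples here are picked from 2 rows of Rpl29, 2 of Rpl28 and 3 of Rpl27 that reached the count minimum. Rps12 had 18 such rows, which are not given here. Rpl29-ps2 fell in the Slc45a4 mRNA knockdown (log2 fold change -0.59, SE 0.16, adjusted p = 0.0238), Rpl28-ps1 fell in the circSlc45a4 knockdown (log2 fold change -0.45, SE 0.09, adjusted p = 0.00283) and Rpl27-ps3 rose there (log2 fold change 0.36, SE 0.08, adjusted p = 0.00519). Together the rows named as pseudogenes of this family held 1.24 to 1.64% of all counts. A single row held as much as 71.0% of the count of its parent (Rps16-ps2). A member's value may therefore include reads of its copies and the other way round. Of the 38 members with under 50% shared windows, 6 fell and 1 rose in the circSlc45a4 knockdown, 5 rose in the Slc45a4 mRNA knockdown, and 7 were lower in the direct comparison, which are 18.4%, 13.2% and 18.4% of them. Of the 39 with a larger share, 2 fell and 1 rose in the circSlc45a4 knockdown, 3 rose and 1 fell in the Slc45a4 mRNA knockdown, and 8 were lower and 1 higher in the direct comparison, which are 7.69%, 10.3% and 23.1%, against 27.1%, 18% and 26.1% of all genes.

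Many of these genes also span snoRNA genes on the same strand. The 29 members that do gave 6 lower and 1 higher call in the circSlc45a4 knockdown (median -0.08), and the 48 without gave 2 lower and 1 higher (median -0.05). These are 24.1% of the hosts and 6.25% of the others, against 27.1% of all genes. In the Slc45a4 mRNA knockdown the hosts gave 4 higher calls (median 0.11), and the others 4 higher and 1 lower (median 0.14), which are 13.8% and 10.4%, against 18% of all genes. The difference between hosts and other members was not tested, and polyA-selected libraries do not measure the snoRNAs.

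The pathway around the ribosome was read from lists fixed with earlier results of these data known. Another list held 20 genes, most of them of translation, whose RNAs are known to start with a pyrimidine tract. It includes the noncoding Gas5 and Snhg1, and the tract was not checked for this list. Of these genes 3 fell in the circSlc45a4 knockdown (median -0.04). In the Slc45a4 mRNA knockdown 3 rose and 2 fell (median 0.09), and 4 were lower in the direct comparison (median -0.12). The shares called were 15%, 25% and 20% in these comparisons, against 27.1%, 18% and 26.1% of all genes. Eif3f, a subunit of the initiation factor eIF3, had 146, 179 and 183 CPM in the circSlc45a4 knockdown, 221, 254 and 237 CPM in the Slc45a4 mRNA knockdown and 300.4, 295 and 299 CPM in scramble. The 3 groups did not overlap, and the fall was larger in the circSlc45a4 knockdown (log2 fold change -0.82, SE 0.09, adjusted p = 3.33e-05) than in the Slc45a4 mRNA knockdown (log2 fold change -0.33, SE 0.09, adjusted p = 0.025), with a direct difference of -0.49 (adjusted p = 0.00176). Eif4a2, a helicase that unwinds mRNA leaders, fell in both (-0.37, adjusted p = 0.00484 in the circSlc45a4 knockdown and -0.32, adjusted p = 0.0164 in the Slc45a4 mRNA knockdown). Hnrnpa1, an RNA-binding protein, rose in the Slc45a4 mRNA knockdown (log2 fold change 0.32, SE 0.07, adjusted p = 0.00683), as did Npm1, a nucleolar chaperone (log2 fold change 0.36, SE 0.09, adjusted p = 0.012). The call of Eif3f in the Slc45a4 mRNA knockdown was lost when any 1 of the 6 libraries of the comparison other than its replicate 2 was left out (adjusted p 0.065 to 0.079), that of Eif4a2 in the Slc45a4 mRNA knockdown without its replicate 3 or scramble replicate 1 (0.063 and 0.075), and that of Npm1 without scramble replicate 2 (0.054).

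Of 40 ribosome biogenesis genes, 5 rose and 5 fell in the circSlc45a4 knockdown, 7 rose and 3 fell in the Slc45a4 mRNA knockdown, and 3 were higher and 8 lower in the direct comparison. The shares called, 25%, 25% and 27.5%, lay near those of all genes (27.1%, 18% and 26.1%) in the circSlc45a4 knockdown and in the direct comparison. Wdr12, which with Pes1 and Bop1 forms the complex that processes large subunit RNA, rose in the circSlc45a4 knockdown (log2 fold change 0.68, SE 0.10, adjusted p = 0.000315) and in the Slc45a4 mRNA knockdown (log2 fold change 0.84, SE 0.10, adjusted p = 0.000124). Bop1 fell in the Slc45a4 mRNA knockdown (log2 fold change -0.84, SE 0.12, adjusted p = 0.000384) and did not pass the threshold in the circSlc45a4 knockdown (log2 fold change -0.31, SE 0.12, adjusted p = 0.0698), with a direct difference of 0.54 (adjusted p = 0.00504). Rrp12, a factor in export of both subunits in yeast, fell in the circSlc45a4 knockdown (log2 fold change -0.87, SE 0.10, adjusted p = 4.41e-05) and in the Slc45a4 mRNA knockdown (log2 fold change -0.54, SE 0.10, adjusted p = 0.00269). Nop56, a core protein of the snoRNPs that methylate ribosomal RNA, was lower in the circSlc45a4 knockdown than in the Slc45a4 mRNA knockdown (log2 fold change -0.41, SE 0.08, adjusted p = 0.00256).

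Of 15 genes of RNA polymerase I and its factors, 3 rose and 2 fell in each knockdown, 33.3% of the list, against 27.1% of all genes in the circSlc45a4 knockdown and 18% in the Slc45a4 mRNA knockdown. Polr1a, the largest subunit of the enzyme, fell in the circSlc45a4 knockdown (log2 fold change -0.58, SE 0.11, adjusted p = 0.00147) and in the Slc45a4 mRNA knockdown (log2 fold change -0.53, SE 0.11, adjusted p = 0.00405), and Polr1e fell in both as well (-0.61, adjusted p = 0.000692 in the circSlc45a4 knockdown and -0.38, adjusted p = 0.0199 in the Slc45a4 mRNA knockdown). The call of Polr1e in the Slc45a4 mRNA knockdown was lost without its replicate 2 or scramble replicate 2 or 3 (adjusted p 0.057 to 0.077). Taf1b, of the factor that brings the enzyme to its promoter, rose in both (0.83, adjusted p = 0.000176 and 0.74, adjusted p = 0.000739). Ubtf, which opens ribosomal DNA for transcription, rose in the circSlc45a4 knockdown (log2 fold change 0.42, SE 0.08, adjusted p = 0.00239) and did not pass the threshold in the Slc45a4 mRNA knockdown (log2 fold change -0.03, SE 0.08, adjusted p = 0.828), with a direct difference of 0.45 (adjusted p = 0.00167).

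Of 21 genes of growth signalling, 1 rose and 3 fell in the circSlc45a4 knockdown, 3 rose and 4 fell in the Slc45a4 mRNA knockdown, and 4 were higher and 3 lower in the direct comparison. These are 19%, 33.3% and 33.3% of the list, against 27.1%, 18% and 26.1% of all genes. Max, the partner of Myc, had 58.0, 57.8 and 58.8 CPM in the circSlc45a4 knockdown, 55.9, 56.6 and 59.3 CPM in the Slc45a4 mRNA knockdown and 31.1, 30.4 and 28.1 CPM in scramble. It rose in both knockdowns (log2 fold change 0.96, SE 0.08, adjusted p = 3.24e-06 and log2 fold change 0.94, SE 0.08, adjusted p = 8.69e-06), far from scramble. Rps6ka2, a kinase of the RSK family and not a ribosomal protein, had 40.3, 43.5 and 49.2 CPM in the circSlc45a4 knockdown and 87.5, 88.1 and 76.1 CPM in scramble and fell (log2 fold change -0.92, SE 0.11, adjusted p = 4.28e-05). Eif4ebp2, which holds back the cap-binding protein eIF4E, had 206, 249 and 258 CPM in the Slc45a4 mRNA knockdown and 129.8, 127 and 136 CPM in scramble and rose (log2 fold change 0.86, SE 0.11, adjusted p = 0.000242).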

How the data were processed

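The authors deposited raw read counts per gene, 1 column for each of 9 libraries. Per the submitters' processing notes, bcl2fastq 2.17.1.14, STAR 2.4.2a, DESeq2 and build mm10 were used; the counting program, its strand setting and its treatment of reads that align to several places are not stated in any source used here. Of 53379 gene identifiers, 53274 matched a symbol in GENCODE M21 (GRCm38), which also gave positions and exon lengths.

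From the counts, edgeR 4.0.16 (R 4.3.3, limma 3.58.1) was run on the 17760 genes kept by filterByExpr, with TMM scaling, all 9 libraries in 1 fit with 3 groups (6 residual degrees of freedom), the quasi-likelihood test and Benjamini-Hochberg adjustment over all genes; an adjusted p under 0.05 is a call. The biological coefficient of variation was 13.9%. The replicates are called biological in the labels, but nothing says that they are separate litters, so p-values measure the spread between these samples. TPM used the union of exons. Total counts were 21073174 to 45469298, and a count of 0 was taken to allow 3 counts (counting error only). Scripts were tested on simulated data.

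Full values are given for the 6 largest rises and falls among called members in each comparison, paralog pairs, and the 3 highest and 3 lowest members of each subunit. They are also given for members nearest the count filter, a few called genes with the smallest p from each other list, Slc45a4 and Xist. Some members that this rule or the tests pick are not reported here by name and are left out of the plots by gene, but they are part of every count, median and sum. Other called members were added after their values were seen. The members and lists were chosen with earlier results of these data known. Alternatives covered other scalings (size factors of DESeq2 1.42.0, upper quartile, factors without the members), the DESeq2 and limma-voom tests, filters, thinning to the smallest library, a 1.2-fold minimum, a length correction, Xist as a covariate, the replicate number as a block, the 6 libraries of each comparison, and leaving out each library. Leaving out pseudogene rows, counting Rps4l, Rpl6l and Rpl32l as members, and the subunit ratio over 1 principal transcript were chosen after seeing the data.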

Additional observations from a re-analysis of the deposited data

Results flagged for a closer look

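The values here, for the genes reported by name, were picked out because the effects of the 2 knockdowns differed when tested directly, by the edgeR quasi-likelihood test of the circSlc45a4 knockdown against the Slc45a4 mRNA knockdown with an adjusted p under 0.05. Groups of 3 libraries are too small for a test of single outlying libraries. The log2 fold change of small subunit members was -0.48 for Rps26, -0.44 for Rps28, -0.42 for Rps20, -0.34 for Rps4x, -0.34 for Rps27l, -0.32 for Rps12, -0.27 for Rps27a and -0.27 for Rps3. That of large subunit members was -0.53 for Rpl28, -0.39 for Rpl36a, -0.36 for Rpl30, -0.35 for Rplp2, -0.25 for Rpl12, -0.21 for Rpl3 and 0.69 for Rpl29, and it was -0.65 for the paralog Rpl22l1.

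Among genes around the ribosome, the log2 fold change was -0.82 for the kinase Rps6ka2, -0.66 for Eif4ebp2, -0.49 for Eif3f, -0.39 for Hnrnpa1, -0.58 for the polymerase I factor Taf1d, -0.41 for Nop56 and -0.33 for Rrp12. It was 0.45 for Ubtf, 0.54 for Bop1 and 0.62 for the targeted gene Slc45a4. The call of Rrp12 was lost without circSlc45a4 knockdown replicate 1 or 2 or Slc45a4 mRNA knockdown replicate 2 or 3 (adjusted p 0.058 to 0.14). The cause of these differences was not tested.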

How the results depend on the processing

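A minimum change of 1.2-fold left 2 members called in the circSlc45a4 knockdown against scramble, 1 in the Slc45a4 mRNA knockdown against scramble and 3 between the knockdowns (2430, 1197 and 2073 of all genes). With Xist as a covariate, 2 and 1 members (1161 and 701 genes) were called in the first 2 comparisons, with medians of -0.20 and 0.019. Xist runs nearly parallel to knockdown against scramble, so this fit has little information on those comparisons. Upper-quartile scaling gave 31 members and 4807 genes between the knockdowns. Leaving out each library gave 5 to 19, 2 to 10 and 5 to 38 members, 3386 to 4248, 1760 to 2764 and 3059 to 4101 genes, and medians of -0.17 to -0.015, 0.09 to 0.19 and -0.27 to -0.14 in the 3 comparisons. The log2 difference in the ratio of large to small subunit over 1 principal transcript was 0.10 for the circSlc45a4 knockdown against scramble and 0.025 for the Slc45a4 mRNA knockdown against scramble. The cause of these shifts was not tested. With upper-quartile scaling 1 rose and 12 fell in the circSlc45a4 knockdown against scramble, and with a length correction, with or without the block, 4 rose and 8 fell. Of the members, 17 lay above 0 in that comparison with upper-quartile scaling and 9 with Xist as a covariate. Between the knockdowns 1 lay above 0 with upper-quartile scaling, 7 with a length correction and 6 with the block and length correction (medians -0.25, -0.12 and -0.13). The medians of all genes in these runs were -0.07, -0.002 and -0.002. The other alternatives run left the number of members called and of all genes called within 1.5 times, and no alternative run reversed the sign of a called gene or of a median over the members.

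Same-numbered libraries correlated at -0.14 to 0.12 in their deviations from the group means. Between the knockdowns these correlations were 0.08 to 0.12, and those of differently numbered libraries -0.07 to -0.03. Between a knockdown and scramble, same-numbered libraries correlated at -0.14 to 0.03. Whether the numbers pair the knockdown libraries was not tested. With the replicate block, 11, 9 and 15 members were called, and with the block and a length correction 12, 10 and 12. Reads shared with pseudogene copies and unstated strand handling limit single members, and 3 libraries per group limit changes near the median SE of 0.09.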

Other observations

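The ribosome of the mitochondrion has its own protein genes. Of 74 tested, 4 rose and 5 fell in the circSlc45a4 knockdown against scramble (median log2 fold change 0.02), 6 rose and 1 fell in the Slc45a4 mRNA knockdown against scramble (median 0.03), and 6 were lower in the direct comparison of the knockdowns (median -0.01), by the edgeR test. The shares called were 12.2%, 9.46% and 8.11%, against 27.1%, 18% and 26.1% of all genes. Of 13 protein genes encoded in mitochondrial DNA, mt-Co1, a subunit of cytochrome c oxidase, was the 1 gene called, higher in the Slc45a4 mRNA knockdown (log2 fold change 0.30). Its call was lost without Slc45a4 mRNA knockdown replicate 1 (0.18, adjusted p = 0.08), without scramble replicate 2 or 3 (adjusted p = 0.17 and 0.118), with the replicate block (adjusted p = 0.0604, and 0.0503 with a length correction), with only the 6 libraries of the comparison (adjusted p = 0.0907), with Xist as a covariate (adjusted p = 0.763) and with a minimum change of 1.2-fold (adjusted p = 0.559), by the edgeR test.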
